A study of Rattus norvegicus with 12 samples.

Results

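The genes described are the collagens, laminins and nidogen of the basement membrane, taken as the array probes whose gene name is Col4a1, Col4a2, Col15a1, Col18a1, Lama2, Lamb1, Lamb2, Lamc1, Nid1 or Hspg2. Of the 10 genes, 9 were found, with 17 of the 41012 probes on the array. Hspg2 matched no probe by its name. The arrays, single-colour Agilent rat oligonucleotide arrays, measured RNA of the left ventricle and of whole blood from male Sprague-Dawley rats. One group had taken amiodarone, an antiarrhythmic drug, by mouth at 300 mg/kg per day for 10 days, and the other had been given the vehicle, 1% methylcellulose. By the labels the rats were 10 weeks old when dosing began, weighed 290 to 320 g, and are also listed as 11 weeks old. Vehicle and amiodarone rats gave 3 RNA pools each per tissue, and every pool was hybridised to 1 array. The labels do not list the rats behind a pool, so p-values here measure the spread between pools.

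A basement membrane is the thin sheet of matrix under endothelium and around each muscle cell, and in the heart it surrounds every capillary and every cardiomyocyte. Collagen IV and laminin each form a network within it, nidogen and perlecan, the product of Hspg2, link the networks, and collagens XV and XVIII sit where the sheet meets the surrounding matrix. Col4a1 and Col4a2 encode the chains that join into the common collagen IV trimer. The laminin of the Lama2, Lamb1 and Lamc1 chains is the main one of muscle fibres, and Lamb2 replaces Lamb1 in other laminins.

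Col4a1 and Col4a2 lie head to head and are transcribed away from each other, so the stretch between their starts is upstream of both, and it is shown because both genes were called lower in the heart. In RefSeq's promoters for the GRCr8 build it spans chr16:84885521-84885596, with 76 bases and 78.9% G or C. It is printed on the plus strand, with a match to the GC box (GGGCGG on either strand) in capitals.

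Col4a2 to Col4a1: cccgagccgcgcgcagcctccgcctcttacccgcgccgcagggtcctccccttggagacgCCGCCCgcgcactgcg

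Of 16845 plus-strand genes in that table, 348 (2.07%) have a minus-strand start as close. Promoters of 9 of the 10 genes were in the table, the entry for Lamb2 being absent. In the 250 bases before the start, on either strand, 8 of the 9, all but Col15a1, held GGGCGG, against 30.5% of all promoters. The 9 windows held 54% (Col15a1) to 75.2% (Col4a1) G or C, and the shares were not adjusted for that. CCAAT was in 4 of the 9, against 34% of all promoters. TATAAA was in 0 of the 9, against 12.9% of all promoters. The windows of Col4a1 and Col4a2 overlap, so their matches are partly the same bases. These matches describe letters only.

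Probes of the collagens are shown because the members called lower in the heart are collagens. Col15a1 and Col18a1 encode related chains that each end in an endostatin domain, and the probes of both lie in the sequence for that domain. The 2 Col18a1 probes, at chr20:11981394-11981453 and chr20:11981417-11981476 in the rn4 build, share 37 bases, which are in capitals.

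Col18a1 A_44_P1004324: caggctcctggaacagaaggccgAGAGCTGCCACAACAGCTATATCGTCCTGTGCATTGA
Col18a1 A_44_P1004323: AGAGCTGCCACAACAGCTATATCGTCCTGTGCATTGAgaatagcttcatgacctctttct
Col15a1 A_44_P208699: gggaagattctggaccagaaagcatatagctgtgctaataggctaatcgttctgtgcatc
Col4a2 A_42_P633958: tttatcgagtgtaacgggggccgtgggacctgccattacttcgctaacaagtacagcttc
Col4a1 A_44_P1070510: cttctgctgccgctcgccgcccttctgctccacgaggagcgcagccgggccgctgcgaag

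Aligned without gaps, the Col15a1 probe and Col18a1 probe A_44_P1004324 matched at 38 of 58 bases (65.5%), and their longest shared run was 8 bases. The Col15a1 probe lies at chr5:63929676-63929735. The Col4a2 probe, at chr16:82900301-82900360, lies in the sequence for the C-terminal NC1 domain. The printed Col4a1 probe, at chr16:83045409-83045468, lies at the start of the coding sequence. Its G and C content was 73.3%, above that of 99.8% of all probes (median 43.3%). A second Col4a1 probe, A_44_P1021644, lies 112137 bases further along the gene and had 55% G or C.

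Levels below are log2 of the processed intensity minus the log2 of the array's 75th percentile, so 0 is the level of that percentile and a difference of -1 is a halving. Testing in a tissue required a group with all of its 3 arrays well above background for that probe, and the brightest such probe stood for its gene. Each tissue was fitted alone with limma. By the labels, heart pools 1 and 2 of each group shared one slide and pool 3 of each group another. Genes are called lower or higher in amiodarone pools at an adjusted p below 0.05 (Benjamini-Hochberg, over every feature of the tissue).

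On each heart array, between 21233 and 25032 of the 43379 spots were well above background. The 75th percentile of heart signal was 134 ± 29.6 (SD, n = 3) for vehicle and 121 ± 25.9 (SD, n = 3) for amiodarone. In blood it was 23.2 ± 2.67 (SD, n = 3) for vehicle and 70.3 ± 14.9 (SD, n = 3) for amiodarone, so every scaled blood difference includes that shift of the percentile. The tissue labels matched their markers. All 11 cardiomyocyte markers were above background on all 6 heart arrays, with Myh6 at 10.98 in vehicle and 10.99 in amiodarone pools, and 9 of 11 were too dim to test in blood. Hbb reached 10.50 in vehicle blood.

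In the left ventricle, 4 of the 9 genes were called lower in amiodarone pools and 0 higher, against 4.12% of 17468 features called lower, 4.46% called higher and 8.58% called in either direction. All 4 encode collagens: Col15a1, Col4a1, Col4a2 and Col18a1. The laminin chains Lama2, Lamb1, Lamb2 and Lamc1 and the linker Nid1 did not pass the test. Whether the collagens changed more than the laminins was not tested. Lamc1, not called, differed by -0.70 on the log2 scale, and Col18a1, called, by -0.60. The groups did not overlap, with amiodarone lower, for 6 of the 9 genes, against 13.2% of all features, and with amiodarone higher for 0, against 19.2%. The median log2 difference of the 9 was -0.60, and that of all features was 0.03. The count of 4 was 2 without vehicle pool 1, and 1 without vehicle pool 2, vehicle pool 3 or amiodarone pool 2, Col15a1 being called in all 6 such fits. With no filter on dim probes, and on the first slide alone, Col15a1 was the 1 gene called. In these bulk samples, fewer cells of a type and less RNA per cell cannot be told apart.

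**Figure D1:**
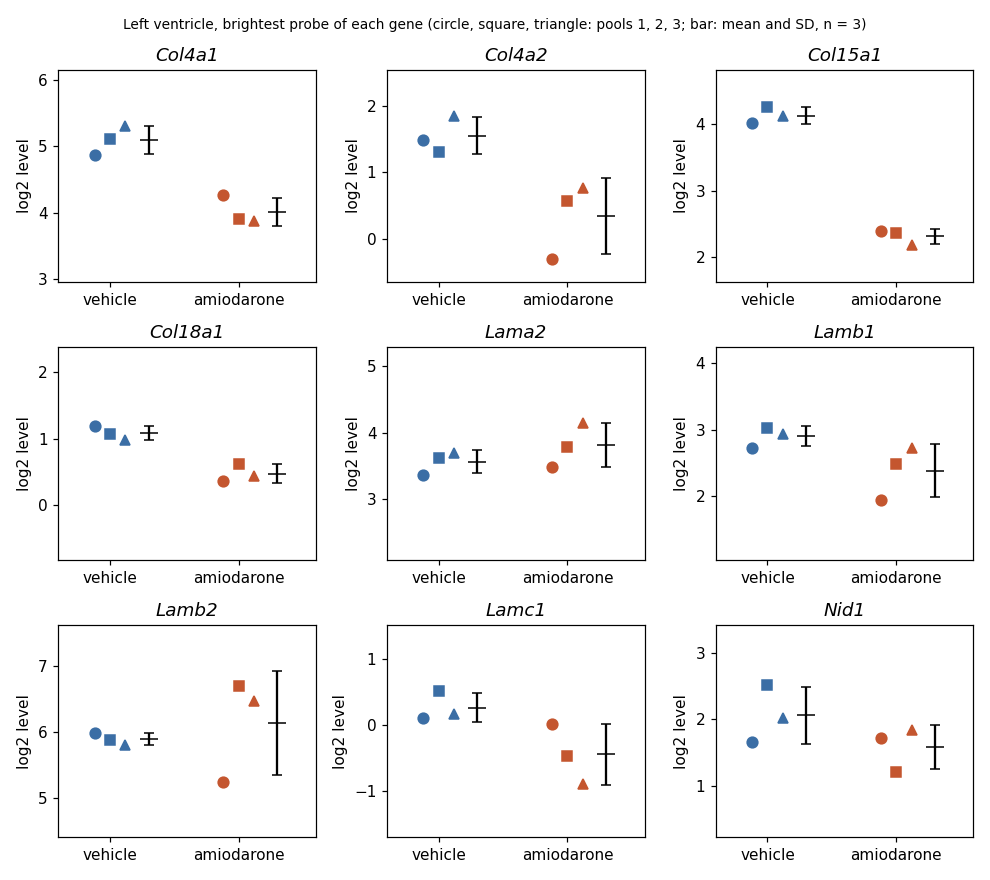
Log2 level of the brightest probe of each of the 9 genes in the left ventricle, with vehicle pools in blue and amiodarone pools in orange; circles, squares and triangles are pools 1, 2 and 3, and bars give the mean and SD (n = 3). Every panel spans the same number of log2 units. The groups stand apart for Col15a1, Col4a1, Col4a2 and Col18a1, with smaller gaps for Lamb1 and Lamc1, and overlap for Lama2, Lamb2 and Nid1.

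Col15a1, the chain of collagen XV found in the basement membranes of muscle and small vessels, had levels of 4.01, 4.26 and 4.12 in vehicle pools 1 to 3 and 2.39, 2.36 and 2.18 in amiodarone pools. Every amiodarone pool was far below every vehicle pool. The log2 difference was -1.82 (SE 0.14, limma adjusted p = 0.00076), or 3.53-fold lower. Leaving out any of the 6 arrays gave -1.88 to -1.75, and the difference was -1.76 on the first slide and -1.94 on the second.

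Col18a1, the related chain of collagen XVIII, had levels of 1.19, 1.08 and 0.98 in vehicle and 0.36, 0.63 and 0.44 in amiodarone pools by its brighter probe. The groups did not overlap, but the gap was smaller than that of Col15a1. The log2 difference was -0.60 (SE 0.14, limma adjusted p = 0.044), and it passed the test in 0 of 6 fits without 1 array (limma adjusted p 0.075 to 0.16). It also missed the threshold with array median scaling (limma adjusted p = 0.0547), with no scaling (0.357) and with the slide as a block (0.0534). The overlapping probe A_44_P1004324 read 0.23, 0.18 and 0.18 in vehicle and -0.76, -0.19 and -0.52 in amiodarone pools, a difference of -0.68 (SE 0.17). With every probe as its own feature its limma adjusted p was 0.0578. Both Col18a1 probes thus gave differences of like size in the heart.

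The difference between the related collagens was read as a ratio within each array. The log2 ratio of Col15a1 over Col18a1 changed by -1.22, from 3.05 ± 0.20 (SD, n = 3) for vehicle to 1.83 ± 0.17 (SD, n = 3) for amiodarone, and was lower in every amiodarone pool. The exact permutation test, two-sided, gave p = 0.1, the smallest that 3 against 3 pools allow, and 0.15 adjusted over the 3 pairs of chains compared. With so few pools the test cannot fall below 0.05, so it does not decide whether the change was unequal.

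Col4a1, by its brighter probe A_44_P1021644, had levels of 4.87, 5.11 and 5.30 in vehicle and 4.26, 3.91 and 3.87 in amiodarone pools. The groups did not overlap, and the log2 difference was -1.08 (SE 0.18, limma adjusted p = 0.0122), or 2.11-fold lower. The difference ranged from -1.20 to -0.97 when 1 array was left out and passed the test in 3 of those 6 fits, failing without vehicle pool 2, vehicle pool 3 or amiodarone pool 2. Within slides it was -0.90 and -1.43.

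The probe at the start of the Col4a1 coding sequence gave another value. It read 3.07, 3.05 and 3.37 in vehicle and 2.96, 2.76 and 3.06 in amiodarone pools, and the groups overlapped. Its difference was -0.24 (SE 0.16, limma adjusted p = 0.411 over all probes). The mean of both probes gave -0.66 (limma adjusted p = 0.0463), so the size of the Col4a1 difference depends on the probe.

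Col4a2, the partner chain of Col4a1, had levels of 1.49, 1.30 and 1.85 in vehicle and -0.31, 0.56 and 0.76 in amiodarone pools. Amiodarone pool 1 was well below the other two, and all 3 amiodarone pools were below every vehicle pool. The log2 difference was -1.21 (SE 0.29, limma adjusted p = 0.0461), or 2.31-fold lower. Without amiodarone pool 1 it was -0.88 (limma adjusted p = 0.0489), and it failed the test without any of the 3 vehicle pools or amiodarone pool 2 (limma adjusted p 0.0925 to 0.156).

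The log2 ratio of Col4a1 over Col4a2 was 3.55 ± 0.23 (SD, n = 3) for vehicle and 3.68 ± 0.78 (SD, n = 3) for amiodarone. The change of 0.13 was within the spread of the pools (exact permutation test, two-sided, p = 1), and without amiodarone pool 1 it was -0.32. The ratio was read with Col4a1 probe A_44_P1021644 alone. By the other Col4a1 probe the Col4a1 difference was -0.24, against -1.21 for Col4a2, and a ratio with that probe was not tested. These pools do not resolve whether the 2 chains changed unequally.

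Among the laminin chains, Lama2, the heavy chain of muscle laminin whose loss causes a muscular dystrophy, had levels of 3.37, 3.62 and 3.70 in vehicle and 3.49, 3.79 and 4.15 in amiodarone pools. The groups overlapped, with a difference of 0.24 (95% interval -0.22 to 0.71, limma adjusted p = 0.489). Its other 3 probes, spread over the gene, gave 0.07, 0.07 and 0.11. All 4 probes therefore gave differences above 0 that did not pass the test.

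Lamb2, the beta chain of laminins at neuromuscular junctions and in vessels, read 5.99, 5.88 and 5.81 in vehicle and 5.24, 6.69 and 6.47 in amiodarone pools. The vehicle pools lay close together, while amiodarone pool 1 was below all of them and pools 2 and 3 above all of them. The difference was 0.24 (95% interval -0.57 to 1.06, limma adjusted p = 0.707). Without amiodarone pool 1 it was 0.69 and passed the test (limma adjusted p = 0.0423), and without amiodarone pool 2 it was -0.04.

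Lamb1, the more widespread beta chain, read 2.73, 3.03 and 2.94 in vehicle and 1.94, 2.48 and 2.72 in amiodarone pools. The groups did not overlap but came close. The difference was -0.52 (95% interval -1.03 to -0.01, limma adjusted p = 0.19), and it missed the threshold in all 6 fits without 1 array. Lamb1 over Lamb2 changed by -0.76 within arrays, from -2.99 ± 0.23 (SD, n = 3) to -3.75 ± 0.45 (SD, n = 3), with p = 0.1 by the two-sided exact permutation test (0.15 adjusted over the 3 pairs).

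Lamc1, the gamma chain shared by most laminins, read 0.10, 0.51 and 0.17 in vehicle and 0.02, -0.46 and -0.89 in amiodarone pools. The groups did not overlap, though amiodarone pool 1 was close to the vehicle pools. The difference was -0.70 (95% interval -1.27 to -0.13, limma adjusted p = 0.13), and without amiodarone pool 1 it was -0.93 and passed the test (limma adjusted p = 0.0457). A second probe gave -0.49 (SE 0.26), with overlapping groups.

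Nid1, which bridges laminin and collagen IV, read 1.65, 2.51 and 2.01 in vehicle and 1.71, 1.21 and 1.83 in amiodarone pools. The groups overlapped, and the difference was -0.47 (95% interval -1.07 to 0.13, limma adjusted p = 0.304). Its other 2 probes, which overlap each other, were too dim to test and were well above background on 1 and 2 of the vehicle arrays and on 0 of the amiodarone arrays.

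**Figure D2:**
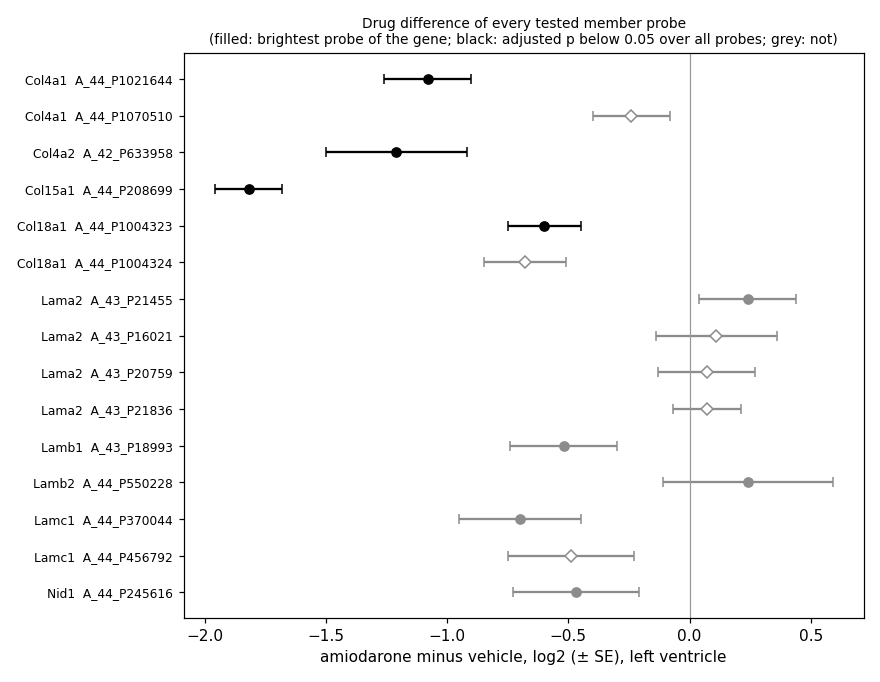
Log2 difference, amiodarone minus vehicle, with its SE, for the 15 tested probes in the left ventricle; filled symbols mark the brightest probe of a gene, and black marks an adjusted p below 0.05 over all probes tested. The 4 black points are collagens, between -1.82 and -0.60, while the second Col4a1 probe lies at -0.24 and the 4 Lama2 probes between 0.07 and 0.24.

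With every probe as its own feature, 4 of the 15 tested probes were called lower and 0 higher, against 3.69% of 20506 probes called lower. Amiodarone pool 1 was the lowest of the 3 for 5 of the 9 genes, pool 2 for 1 and pool 3 for 3. The array also has 2 probes described as perlecan, which carry another gene name, and so were not counted. In the heart they gave differences of -0.20 (SE 0.18) and -0.51 (SE 0.51), and neither passed the test.

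A list of 28 other basement membrane genes gave calls in both directions in the heart. Of its 25 genes with a probe, 16 could be tested, 5 were called lower and 2 higher, and the median difference was -0.44. For this list and the heart lists below, the shares over all heart features were 4.12% called lower and 4.46% called higher. Smoc2, a matricellular protein of the membrane, read 3.35 to 3.81 in vehicle and 2.07 to 2.29 in amiodarone pools, a difference of -1.36 (SE 0.16, limma adjusted p = 0.00397). Nid2, the second nidogen, fell by 1.28 on the log2 scale (limma adjusted p = 0.00853), and by 0.64 with normexp background correction. The calls of these 2 genes held in all 6 fits without 1 array.

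Sparc, which binds collagen IV, fell from 7.86 ± 0.05 (SD, n = 3) to 6.98 ± 0.19 (SD, n = 3), a difference of -0.87 (limma adjusted p = 0.014), a call that held in 2 of the 6 fits without 1 array and was lost with no scaling (limma adjusted p = 0.0902). Lama4, the alpha chain of vascular laminin, differed by -0.73 (limma adjusted p = 0.0273), and this call was lost in each of the 6 fits without 1 array. The fifth gene called lower was Egflam, named here after its value was seen, at -0.58 (limma adjusted p = 0.0436).

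Tinagl1, a secreted matrix glycoprotein related to tubulointerstitial nephritis antigen, was called higher. It read -1.19 to -1.04 in vehicle and -0.06 to 0.72 in amiodarone pools, a difference of 1.51 (SE 0.21, limma adjusted p = 0.00683), and the call held in all 6 fits without 1 array. Col4a4, a chain of the specialised collagen IV of kidney and other sites, differed by 0.71 at a low level (limma adjusted p = 0.0449), which held in 0 of those fits. Over the list, the count called lower was 2 in each fit without a vehicle pool or without amiodarone pool 2, and 3 without amiodarone pool 3. The count called higher was 1 in each fit without 1 array.

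Of 15 receptors of basement membranes, 12 were tested, with 3 called lower, 1 higher and a median of -0.13. Itga6, an integrin subunit that binds laminin, differed by -1.25 (SE 0.26, limma adjusted p = 0.0289), and by -0.47 with normexp background correction. Bcam, the receptor of laminin alpha 5 chains, differed by -0.91 (limma adjusted p = 0.0245), and the heparan sulfate proteoglycan Sdc1 by -0.64 (limma adjusted p = 0.0413). Sdc4, another membrane proteoglycan, was higher by 1.12 (limma adjusted p = 0.0148). Without 1 array, these calls held in 3 of 6 fits for Itga6, 1 for Bcam, 0 for Sdc1 and 4 for Sdc4. With no scaling the calls of Bcam, Sdc1 and Sdc4 were lost (limma adjusted p = 0.0716, 0.309 and 0.108).

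Of 16 genes for the folding and modification of collagen, 13 were tested, with 1 called lower, 0 higher and a median of -0.17. The 1 gene was Serpinh1, which encodes the collagen chaperone HSP47. It fell from 5.21 ± 0.23 (SD, n = 3) to 3.83 ± 0.23 (SD, n = 3), a difference of -1.38 (limma adjusted p = 0.00552), in all 6 fits without 1 array.

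Interstitial collagens, the fibrils and filaments outside the basement membrane, gave larger differences in the same arrays. Of 11 tested, 9 were called lower and 0 higher, with a median of -1.31. Col5a3 and Col1a1 fell by 2.37 and 2.12 on the log2 scale (limma adjusted p = 0.00022 and 0.00097). Col5a1 and Col1a2 fell by 1.97 and 1.44 (limma adjusted p = 0.00117 and 0.0022). With normexp background correction Col5a3 differed by -1.45. The difference between the 2 lists was not tested.

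**Figure D3:**
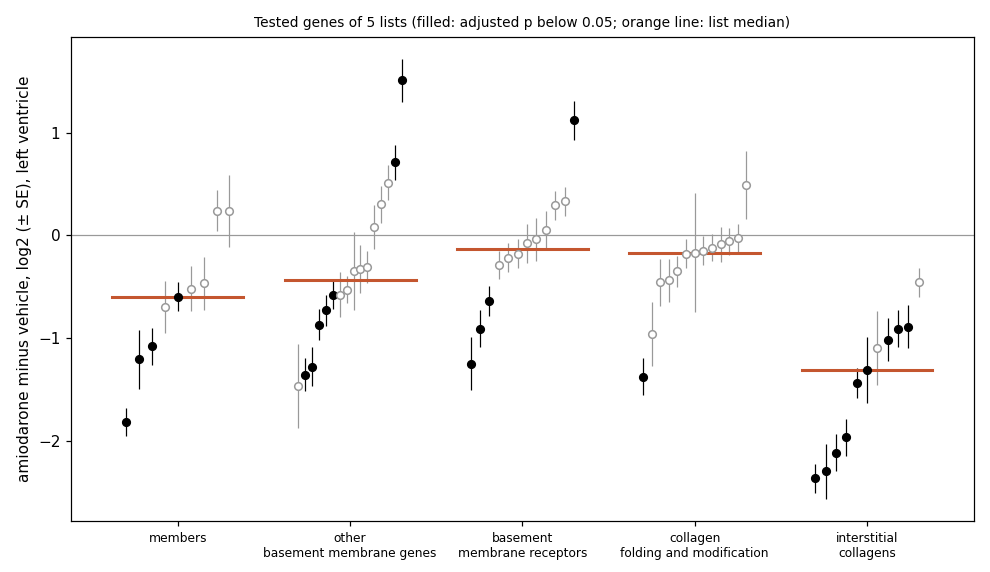
Log2 difference, amiodarone minus vehicle, with its SE, for the tested genes of 5 lists in the left ventricle, where the list named members holds the 9 genes described above; filled points have an adjusted p below 0.05 and orange lines are list medians. The medians are -0.60 for the 9 genes, -0.44, -0.13 and -0.17 for the other basement membrane, receptor and folding lists, and -1.31 for interstitial collagens.

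Marker lists of the cell types of the ventricle were read in the same arrays. Of 16 tested endothelial markers, 2 were called lower (Nos3 at -0.76 and Tie1 at -1.04) and 0 higher, with a median of -0.26. The difference was below 0 for 14 of the 16, against 47% of all features. Their summed level, on a linear scale in units of the array's 75th percentile, was 195 to 209 in vehicle and 187 to 214 in amiodarone pools, and rests mostly on the bright markers Kdr and Egfl7, which were not called (0.24 and -0.15). Of 8 smooth muscle and pericyte markers, 2 were called lower (Mcam at -1.05 and Tagln at -0.89) and 0 higher, with a median of -0.04. The difference was above 0 for 3 of these 8, and the sums were 97.4 to 98.6 and 91.2 to 106. Of 8 fibroblast markers, 3 were called lower and 1 higher (Fap at -0.98 and Dpt at -0.88 had the smallest p), with a median of -0.32. Differences were above 0 for 3 of the 8. Among them, named after their values were seen, were Pdgfra at 0.47 and Dcn at 0.40, neither called. The sums were 424 to 487 in vehicle and 588 to 692 in amiodarone pools. The gene called higher, Gsn, named after its value was seen, was the brightest of the list and went from 8.40 to 9.01, so the sums follow it more than the other 7 markers. Cardiomyocyte markers gave 0 calls of 11 tested, with sums of 6550 to 9030 and 7640 to 8150.

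Red cell markers had 4 of 8 tested called lower and 0 higher. Of these 4, Add2 and, named after its value was seen, Epb42 were well above background on all 3 vehicle arrays and 0 of the 3 amiodarone arrays, so they entered the test through the vehicle group alone. The list had sums of 69.6 to 101 in vehicle and 18.6 to 22.3 in amiodarone pools. Hbb, measured on all 6 arrays, differed by -2.39. Macrophage markers had 2 of 7 called higher (C1qb at 0.89 and Mrc1 at 1.27), with sums of 38.3 to 54.6 and 69.8 to 88.5. Of 5 adipocyte markers 1 could be tested, Fabp4, at 0.36 and not called. The part of these cell types in the collagen differences was not tested.

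In blood, 3 of the 9 genes could be tested, Col4a1, Col15a1 and Col18a1, and all 3 were called lower, against 26.9% of 15668 features called lower, 41.2% called higher and 68.1% called in either direction. The other 6 genes, with 12 probes, were not above background on all 3 arrays of either group. The median difference of the 3 was -1.44, while that of all features was 0.45. Without scaling, the median of all features became 2.04, Col4a1 and Col15a1 turned to 0.14 and 0.44, and Col18a1 stayed lower at -0.86 (limma adjusted p = 0.0246). With normexp background correction Col4a1 and Col15a1 missed the threshold (limma adjusted p = 0.0887 and 0.204), as did Col15a1 with array median scaling (0.0678).

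In blood, Col4a1 was read by the probe at the start of the coding sequence. Its levels were 4.72, 4.94 and 4.75 in vehicle and 3.19, 3.53 and 3.36 in amiodarone pools. The difference was -1.44 (SE 0.18, limma adjusted p = 0.0011). Before scaling, its signal was 619 to 667 in vehicle and 625 to 762 in amiodarone pools, so its signal before scaling was not lower in amiodarone pools. The other Col4a1 probe, A_44_P1021644, read 1.97 to 6.83 over all blood arrays and was well above background on 0 of 6, while in the heart it was the brighter of the pair.

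Col18a1 in blood was read by A_44_P1004324, the dimmer of its probes in the heart. Its levels were 2.68, 2.63 and 2.40 in vehicle and -0.02, 0.60 and -0.20 in amiodarone pools. The groups were far apart, with a difference of -2.44 (SE 0.24, limma adjusted p = 0.000941), or 5.44-fold lower. Its signal before scaling was also lower, 125 to 162 against 63.7 to 82.5. The overlapping probe A_44_P1004323 was well above background on 2 vehicle and 1 amiodarone arrays and was not tested there.

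Col15a1 was dim but above background on all blood arrays, at 0.09, 0.54 and 0.79 in vehicle and -1.33, -0.49 and -0.19 in amiodarone pools. The groups did not overlap, with a difference of -1.14 (SE 0.33, limma adjusted p = 0.0184). Its signal before scaling overlapped, at 26.9 to 41.6 in vehicle and 33.2 to 64.3 in amiodarone pools, and without vehicle pool 3 the call was lost (limma adjusted p = 0.0522). One of the 2 probes described as perlecan was measured in blood and differed by -0.52 (limma adjusted p = 0.0473 over all probes). Its signal before scaling ran the other way, at 48.3 to 76.8 in vehicle and 106 to 148 in amiodarone pools. Red cell markers were called lower in the same blood pools, 9 of 9 tested, against 26.9% of all blood features. Their sums, in units of the array's 75th percentile, were 11000 to 16600 in vehicle and 2780 to 4780 in amiodarone pools. They include the shift of that percentile, from a mean of 23.2 in vehicle to 70.3 in amiodarone pools. The part of red cells in the collagen and perlecan differences was not tested.

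**Figure D4:**
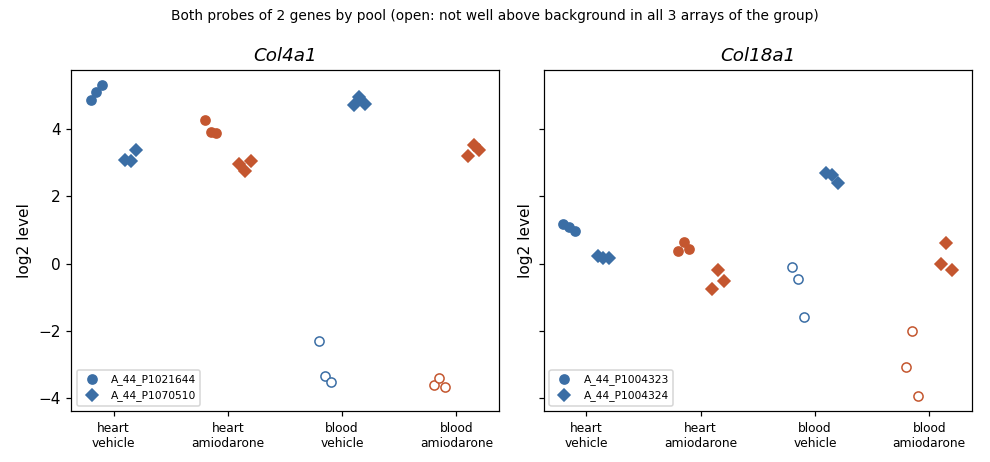
Log2 level of both probes of Col4a1 and of Col18a1 in every pool of heart and blood, with vehicle in blue and amiodarone in orange; open symbols mark groups in which the probe was not well above background on all 3 arrays. In blood, A_44_P1070510 of Col4a1 and A_44_P1004324 of Col18a1 are bright, while the other probe of each gene is near background, although in the heart both probes of each gene are measured.

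The drug difference in heart minus that in blood was tested on 1 probe per gene measured in both tissues, and 2 of the 3 genes passed, against 51.5% of 13044 features. Col18a1, by A_44_P1004324, differed by -0.68 in heart and -2.44 in blood, a gap of 1.76 (SE 0.30, limma adjusted p = 0.00105). Col4a1, by its coding-start probe, differed by -0.24 in heart and -1.44 in blood, a gap of 1.21 (SE 0.22, limma adjusted p = 0.0016). The other Col4a1 probe differed by -1.08 in heart and was not well above background on any blood array. The Col4a1 gap therefore rests on 1 probe and on the smaller of its 2 heart differences. For Col15a1 the gap was -0.68 (SE 0.37, limma adjusted p = 0.142), and without blood amiodarone pool 1 it was -1.01 and passed (limma adjusted p = 0.0185). Without scaling, the gap of Col18a1 shrank to 0.04, that of Col4a1 turned to -0.52, and that of Col15a1 was -2.40 and passed (limma adjusted p = 1.5e-05). With normexp background correction the gaps were 0.65 for Col18a1 (limma adjusted p = 0.0377), 1.03 for Col4a1 (0.135) and -1.52 for Col15a1 (0.00346).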

How the data were processed

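Per the file headers, the deposited scanner files hold the processed intensity of each spot from Agilent Feature Extraction 9.5.1.1, after background subtraction and detrending, with no normalization between arrays. Probe positions there are in rn4. The authors' value table holds normalized intensity on a linear scale, its method not given in the sources used here, and served as an alternative only. The other columns used, per the file headers, are flags, names and probe sequences.

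Outlier spots were dropped, spots of a probe were averaged on the log2 scale, and each array's log2 75th percentile was subtracted. Each tissue was fitted with limma 3.58.1 in R 4.3.3 (two-sided, no covariates). The difference between tissues was a contrast in 1 fit of all 12 arrays. Chain ratios were tested by exact permutation. No member value was missing or imputed. Promoters come from RefSeq (GRCr8).

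The genes, lists and rules were chosen with earlier results of these data known. All 10 member genes are named. From each pathway list at most 4 genes past the threshold are named per direction, by smallest p, and from each marker list up to 2, or the brightest 1. Alternatives covered scaling, background (normexp, offset 50), the value table, filter, probe choice, variance model, slide, replicate block and leaving out each array.

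The limma step was tested on simulated data. For the heart (17462 features), the share recovered was 0% at 1.5-fold, 42% at 2-fold, 86% at 4-fold and 90% at 8-fold, and 4.39% of calls were false. For blood (15648 features) the shares were 0%, 26%, 60% and 78%, and 0% of calls were false. The simulation changed 50 features at each fold and used independent noise. In the arrays themselves 8.58% of heart and 68.1% of blood features were called, so the simulated shares need not hold there. Numbers of arrays limit the precision.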

Additional observations from a re-analysis of the deposited data

Results flagged for a closer look

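The drug difference in heart and in blood was compared by limma over 13044 features, of which 51.5% passed, and 4 genes passed with a probe measured in every group. For Col18a1 the heart minus blood gap was 1.76, and for Col4a1 it was 1.21, both by the probes described above. For Tinagl1 the gap was 3.42 (limma adjusted p = 5.79e-05), with 1.51 in heart and -1.91 in blood. On scaled levels its direction was thus opposite in the 2 tissues. Without scaling the gap was 1.70 and the heart difference 1.37, so little of the scaled blood difference remained. Lamb3, a laminin chain of epithelia, had a gap of 1.44 (limma adjusted p = 0.00598), which turned to -0.29 without scaling. The fitted gaps of Agrn, the proteoglycan agrin (-2.05), and of Sparc (-1.63) are not read as differences. In vehicle blood, Agrn was well above background on 1 and Sparc on 0 of the 3 arrays, so both entered the test through the amiodarone group alone.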

How the results depend on the processing

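In the heart, the count of the 9 genes called lower stayed at 3 or 4 under every setting but 3, and was 1 with no filter, with the first slide alone and with the replicate block. Over fits without 1 array it was 1 to 4, and the count called higher was 0 to 1. The median difference stayed between -0.74 and -0.50 under all settings. Col15a1 was called under all 19. The other basement membrane genes called lower numbered 3 with no scaling, 1 with no filter, 0 on the first slide alone and 3 with the replicate block, and 2 to 4 over fits without 1 array. Those called higher numbered 1 with no scaling, with normexp, with the trended and robust variance model, with the slide block and with the replicate block, 0 with no filter and 0 on the first slide alone, and 1 without 1 array. In blood, the count called lower was 1 with no scaling, 1 with normexp and 6 with no filter, which admits dim probes. Members passing the test between tissues numbered 1 with no scaling, a different gene from the 2 reported, and 2 to 3 without 1 array, an alternative chosen after seeing the data. The Col4a1 over Col4a2 ratio turned to -0.16 with normexp and ranged from -0.32 (without amiodarone pool 1) to 0.41 over fits without 1 array. Lamb2 in heart ranged from -0.04 (without amiodarone pool 2) to 0.69 over such fits. With no scaling, Col4a1 and Col15a1 in blood turned to 0.14 and 0.44, and the tissue gaps of Col4a1 and Lamb3 to -0.52 and -0.29. The cause of these shifts between settings was not tested. With 1 heart array left out, the features called ran from 527 (without vehicle pool 3) to 1328 (without amiodarone pool 1). All heart features called lower and higher were 719 and 779, against 511 and 225 with no scaling and 578 and 1033 with array median scaling. In blood they were 4222 and 6449, against 307 and 11754 with no scaling, 3471 and 7858 with array median scaling and 1044 and 245 with normexp. Same-numbered heart pools had correlated deviations of -0.17, -0.24 and 0.32, and blood pools 0.09, 0.17 and 0.31. Pools of unlike number ran from -0.19 to 0.35 in heart and from -0.30 to 0.17 in blood. Not every same-numbered pair passed 0.1, so the numbers were not taken to pair the pools. The replicate block took the heart calls from 1498 to 753, and with it Col15a1 passed the test between tissues (limma adjusted p = 0.0404), making 3 genes in place of 2. Signal over background limits blood, where 6 of the 9 genes were not testable.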
